A study of Mus musculus with 9 samples.

Results

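The chemokine system of the mandible was examined as 60 genes of the 27179 in the count table, chosen by gene symbol alone. They are all genes whose symbol is Ccl, Ccr, Cxcl, Cxcr, Xcl, Xcr or Ackr followed by a number, with an a or b where present, together with Cx3cl1 and Cx3cr1. The set holds 38 ligands, 18 conventional receptors and 4 atypical receptors. Poly(A) RNA was sequenced from whole mandibles, teeth included, of 5 WT mice and 4 mice labeled FcγRIIB-/-, a lupus model that carries a germline deletion of the inhibitory IgG receptor. All 9 mice were C57BL/6 males 6 months old, and no mouse was treated. The counts summed to between 24158960 and 26787359 per WT mouse and to between 21453880 and 28991631 per mouse labeled FcγRIIB-/-.

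Chemokines are small secreted proteins that set the paths along which leukocytes move. They are named by the spacing of their N-terminal cysteines (CC, CXC, C and CX3C) and are read by G protein-coupled receptors on the responding cell, whereas the atypical receptors bind chemokines without G protein signaling and remove or redistribute them. In the marrow, Cxcl12 made by stromal cells holds Cxcr4-bearing hematopoietic cells in place, Cxcr2 and its ligands draw neutrophils out, and Ccr2 is needed for monocytes to leave.

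Before the genes are described, 3 features of the libraries have to be given. Fcgr2b was not lower in the mice labeled FcγRIIB-/-, at 26.0 to 32.1 CPM (read counts scaled to the TMM-normalized size of the library) against 17.0 to 38.3 CPM in WT (two-sided exact permutation test over 126 splits, p = 0.444), so every direction here is between libraries by their labels. WT mouse 2 stood apart in lymphoid genes, with 16.3 CPM of Ms4a1 against 1.62 to 4.33 CPM in the other WT mice and 4.49 CPM of Cd3e against 0.29 to 0.91 CPM. WT mouse 5 stood apart in eosinophil genes, with 97.9 CPM of Prg2 against 1.28 to 2.25 CPM in the other WT mice.

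Of the 60 genes, 43 had enough reads to be tested. These were 26 ligands, 13 conventional receptors and all 4 atypical receptors. The filter asked for at least 0.397 CPM, equal to 10 counts in a library of median size, in 4 libraries. Ccr9, Ccr3, Cxcr3, Cxcr5, Ccl24 and Ccl28 reached it through the WT mice alone, and Ccl3 through mice of both groups together, so for the genes carried by WT alone a lower value in the other group is partly fixed by the filter. Differences were tested with edgeR's quasi-likelihood test, with Benjamini-Hochberg adjustment over all 16329 genes tested and a threshold of 0.05. Fold changes are on the log2 scale, mice labeled FcγRIIB-/- over WT, each with its standard error (SE).

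Of the 13 conventional receptors tested, 8 were lower in the mice labeled FcγRIIB-/- and 0 were higher, with a median log2 fold change of -1.41. Over the 9 of them that reached the filter in both groups, 6 were lower and 0 were higher, with a median of -1.32. Over all tested genes 19.3% were lower and 14.0% were higher, and the median was 0.01. At an unadjusted p under 0.05, edgeR still gave 0 conventional receptors as higher. At an adjusted p under 0.05, DESeq2 gave 9 lower and 0 higher. Of the 26 ligands tested, 1 was lower, 2 were higher and 23 did not pass the test, with a median of -0.23. None of the 4 atypical receptors passed in edgeR, either adjusted or at an unadjusted p under 0.05, and DESeq2 also called 0. The summed level of the conventional receptors was 107.0 to 220.4 CPM in WT and 56.8 to 79.1 CPM in the mice labeled FcγRIIB-/-, without overlap. The summed ligands overlapped, at 524.8 to 952.3 CPM and 432.2 to 573.1 CPM, and so did the atypical receptors, at 102.2 to 138.9 CPM and 102.0 to 125.2 CPM. The ligand counts and sums hold only for symbols under the rule. They leave out the platelet CXC chemokines Ppbp and Pf4, which were both lower. Ppbp averaged 177.0 CPM in WT and 64.4 CPM in the other group, and Pf4 averaged 42.5 and 20.6 CPM. In whole tissue, fewer cells of a type and less RNA per cell cannot be told apart. Without WT mice 2 and 5, a choice made after their values were seen, 7 receptors were lower and 1 was higher, Cxcl12 was still lower, and the 1 ligand that was higher was Cxcl13 in place of the 2 above.

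**Figure D1:**
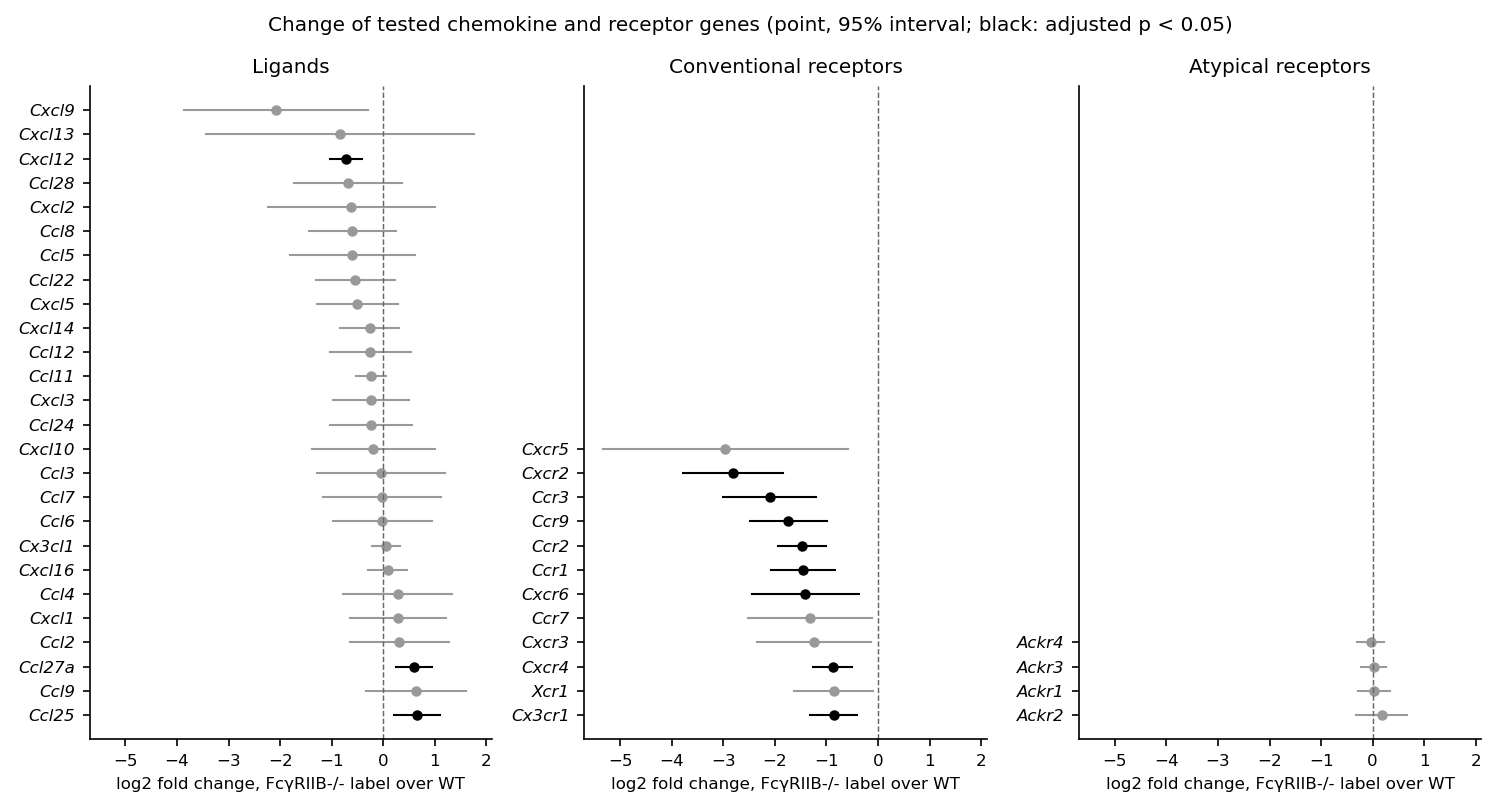
The x axis of each panel is the log2 fold change of the mice labeled FcγRIIB-/- over WT for the tested genes reported here, drawn as a point with its unadjusted 95% interval, and black marks an adjusted p under 0.05. The 12 conventional receptors drawn sit left of 0, whereas the ligands lie on both sides and the 4 atypical receptors lie between -0.04 and 0.18.

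The promoters of 5 genes are shown because the results return to them. Cxcl1, Cxcl2 and Cxcl3 are neighboring neutrophil chemokine genes that went up and down together from mouse to mouse, and Cxcl12 and Cxcr4 are the ligand and receptor of 1 pair that were both lower. Each line gives the 200 bases before the RefSeq transcription start (build GRCm38.p6, the mm10 assembly), 5′ to 3′ on the strand of the gene.
Cxcl1 promoter, chr5:90891045-90891244, plus strand: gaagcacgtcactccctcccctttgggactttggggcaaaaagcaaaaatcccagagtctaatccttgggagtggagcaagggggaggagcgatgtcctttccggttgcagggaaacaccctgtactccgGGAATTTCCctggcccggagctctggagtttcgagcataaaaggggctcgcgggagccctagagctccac
Cxcl2 promoter, chr5:90903699-90903898, plus strand: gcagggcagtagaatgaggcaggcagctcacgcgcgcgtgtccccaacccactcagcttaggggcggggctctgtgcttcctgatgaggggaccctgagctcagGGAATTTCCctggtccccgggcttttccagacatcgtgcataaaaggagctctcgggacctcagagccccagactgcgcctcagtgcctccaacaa
Cxcl3 promoter, chr5:90785901-90786100, plus strand: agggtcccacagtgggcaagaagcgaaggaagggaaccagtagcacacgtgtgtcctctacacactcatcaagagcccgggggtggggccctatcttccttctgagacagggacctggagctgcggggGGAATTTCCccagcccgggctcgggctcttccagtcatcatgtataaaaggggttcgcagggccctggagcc
Cxcl12 promoter, chr6:117168335-117168534, plus strand: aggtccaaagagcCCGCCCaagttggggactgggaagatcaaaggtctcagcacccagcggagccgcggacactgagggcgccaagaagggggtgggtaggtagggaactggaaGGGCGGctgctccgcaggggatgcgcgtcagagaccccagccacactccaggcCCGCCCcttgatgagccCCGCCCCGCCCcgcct
Cxcr4 promoter, chr1:128592300-128592499, minus strand: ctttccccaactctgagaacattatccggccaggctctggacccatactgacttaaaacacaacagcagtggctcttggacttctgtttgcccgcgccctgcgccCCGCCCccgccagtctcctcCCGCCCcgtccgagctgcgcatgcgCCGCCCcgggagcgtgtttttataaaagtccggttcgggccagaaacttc
In Cxcl1, Cxcl2 and Cxcl3 the capitals mark GGAATTTCC, a sequence of the NF-kappa B type, which starts 70, 96 and 72 bases before the start. On either strand it was present in 0.317% of the 32851 mouse promoter windows of 300 bases (250 before to 50 after the start), and among the 45 chemokine system genes with a window it was also found in those of Cxcl10 and Ccr3. In Cxcl12 and Cxcr4 the capitals mark the GC box GGGCGG on either strand, found 5 and 3 times, with 1 shared base where the matches of Cxcl12 meet. It was present in 35.7% of all windows and in those of 10 of the 45 genes. The letters of the 2 motifs do not overlap in the sequences shown. A match describes the sequence and does not show that a factor binds there.

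Cxcr4, the receptor that retains hematopoietic stem cells and precursors near stromal cells, had 27.6, 39.1, 20.6, 25.0 and 30.8 CPM in WT mice 1 to 5. In the mice labeled FcγRIIB-/- 1 to 4 it had 14.0, 15.6, 18.8 and 14.0 CPM. The groups did not overlap, and the log2 fold change was -0.88 (SE 0.17, adjusted p = 0.00402). Its ligand Cxcl12 had 302.8, 469.5, 290.4, 327.0 and 327.9 CPM in WT and 235.3, 193.5, 193.0 and 209.2 CPM in the other group. Again no mouse of one group fell in the range of the other, with a log2 fold change of -0.73 (SE 0.14, adjusted p = 0.0038). Cxcl12 alone made up 33.7% to 59.4% of the summed CPM of the 38 ligands under the rule in a mouse. That sum leaves out Ppbp and Pf4. Over all tested genes the groups did not overlap in CPM for 17.5% in the lower and 12.1% in the higher direction. Without overlap, 7 of 13 conventional receptors and 1 of 26 ligands were lower and 2 of 26 ligands were higher. Over the genes that reached the filter in both groups, these counts were 5 of 9 receptors, 1 of 23 ligands and 2 of 23 ligands.

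The ratio of Cxcl12 to Cxcr4 within a mouse was 10.6 to 14.1 in WT and 10.3 to 16.7 in the mice labeled FcγRIIB-/-, so it overlapped between the groups. Lepr, the leptin receptor that marks the Cxcl12-rich stromal cells of marrow, was 47.2 to 61.4 CPM in WT and 26.1 to 31.6 CPM in the other group (log2 fold change -0.89, SE 0.09, adjusted p = 0.00023). The ratio of Cxcl12 to Lepr overlapped as well, at 5.34 to 8.70 and 6.10 to 7.75. Of the 9 marrow stromal markers examined 4 were lower (Lepr, Adipoq, Vcam1 and Pdgfra) and 1, Kitl, was higher. Foxc1, Ebf3, Pdgfrb and Il7 did not pass, with log2 fold changes of -0.02, -0.07, -0.14 and -0.68. The summed level of the 9 markers was 678.4 to 774.8 CPM in WT and 541.2 to 625.9 CPM in the mice labeled FcγRIIB-/-. Their part in the Cxcl12 result was not tested. Ackr3, the atypical receptor that scavenges Cxcl12, did not follow: it had 59.5, 60.8, 62.9, 65.2 and 87.4 CPM in WT and 63.3, 67.4, 73.6 and 67.6 CPM in the other group. Its log2 fold change was 0.02, with a 95% interval of -0.23 to 0.26.

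Ccr2, the receptor with which inflammatory monocytes leave the marrow, had 31.9, 61.5, 29.4, 40.6 and 45.1 CPM in WT. In the mice labeled FcγRIIB-/- it had 17.5, 12.7, 16.1 and 13.6 CPM. All 4 were below every WT mouse, at a log2 fold change of -1.47 (SE 0.21, adjusted p = 0.000945). This was the lowest adjusted p among the 43 genes. Ccr1, a receptor of Ccl3, Ccl5 and Ccl9 on myeloid cells and osteoclast precursors, had 10.7, 18.1, 8.67, 10.2 and 18.7 CPM in WT and 5.19, 5.50, 5.63 and 2.94 CPM in the other group. It was lower without overlap (log2 fold change -1.45, SE 0.28, adjusted p = 0.00368). Cx3cr1, the fractalkine receptor of patrolling monocytes and resident macrophages, had 27.8, 43.0, 32.4, 27.1 and 30.1 CPM in WT and 17.9, 11.3, 16.9 and 24.8 CPM in the mice labeled FcγRIIB-/-. The highest of the latter lay just under the lowest WT mouse, and the log2 fold change was -0.86 (SE 0.21, adjusted p = 0.0103).

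The macrophage receptor Csf1r was 100.03 to 142.4 CPM in WT and 60.2 to 71.9 CPM in the mice labeled FcγRIIB-/-. Of the 12 monocyte and macrophage markers listed, 11 were tested and 6 were lower. The 12 summed to 785.6 to 1285 CPM in WT and 568.3 to 792.3 CPM in the other group. Relative to Csf1r, Ccr2 was 0.29 to 0.43 in WT and 0.20 to 0.26 in the other group, without overlap. This ratio was chosen after the values were seen. Ccr1 and Cx3cr1 relative to Csf1r overlapped. The part of monocyte and macrophage number in these results was not tested.

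Cxcr2, the receptor through which neutrophils answer Cxcl1, Cxcl2, Cxcl3 and Cxcl5, showed the largest called change of the 43 genes. It had 6.96, 12.4, 4.66, 6.06 and 17.8 CPM in WT and 2.03, 0.88, 1.36 and 1.06 CPM in the mice labeled FcγRIIB-/-. The groups did not overlap, at a log2 fold change of -2.82 (SE 0.44, adjusted p = 0.00144), or 7.04-fold lower. All 14 neutrophil markers were lower, with a median log2 fold change of -3.05, and their sum was 1440 to 4053 CPM in WT and 201.1 to 548.5 CPM in the other group. Csf3r, the G-CSF receptor of the same cells, was 21.05 to 46.5 CPM in WT and 4.30 to 13.1 CPM in the mice labeled FcγRIIB-/-. Cxcr2 relative to Csf3r was 0.22 to 0.38 and 0.08 to 0.28, with overlap. The part of neutrophil number in the Cxcr2 result was not tested. Cxcr1, the sister receptor, lies beside Cxcr2 on chromosome 1 and had at most 5 counts in any mouse.

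Ccr3, the eotaxin receptor of eosinophils, had 1.45, 2.17, 1.47, 1.58 and 4.18 CPM in WT, the highest in WT mouse 5. It had 0.28, 0.46, 0.68 and 0.61 CPM in the mice labeled FcγRIIB-/-, which rests on 8 to 16 counts a mouse. The groups did not overlap (log2 fold change -2.10, SE 0.41, adjusted p = 0.00399). Without WT mice 2 and 5 the call held. The eosinophil granule gene Prg2 was lower too, at 1.28 to 97.9 CPM in WT and 0.10 to 0.38 CPM in the other group (log2 fold change -6.28, SE 1.84, adjusted p = 0.0245). The size of that change rests on WT mouse 5, since the other WT mice had at most 2.25 CPM. Epx, another granule gene, was below the filter, with 676 counts in WT mouse 5, 1 to 15 counts in the other WT mice and 0 or 1 in the mice labeled FcγRIIB-/-. Of the 12 mast cell and eosinophil markers listed, 7 were tested and 6 were lower. Kit did not pass and averaged 55.6 CPM in WT and 53.1 CPM in the other group. The 12 markers, tested or not and with Kit among them, summed to 70.4 to 227.3 CPM in WT and 55.4 to 65.2 CPM in the other group. Their part in the Ccr3 result was not tested. The eotaxins themselves did not pass. Ccl11 had a log2 fold change of -0.24 and Ccl24 one of -0.23, and Ccl26 had 0 counts in every mouse.

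Among the lymphoid homing receptors, Ccr9, which guides thymic and gut-bound lymphocytes, had 0.98, 1.48, 0.62, 1.10 and 1.76 CPM in WT and 0.39, 0.32, 0.30 and 0.41 CPM in the mice labeled FcγRIIB-/-. It was lower without overlap (log2 fold change -1.74, SE 0.34, adjusted p = 0.00378), on 7 to 11 counts a mouse in the latter. Cxcr6, the Cxcl16 receptor of effector T and NK cells, had 2.32, 5.58, 1.31, 2.13 and 1.76 CPM in WT and 0.91, 0.42, 1.10 and 1.52 CPM in the other group. Here the groups overlapped, the log2 fold change was -1.41 (SE 0.47, adjusted p = 0.0401), and the call was lost when WT mouse 1, 2 or 4 or mouse 1, 2 or 3 labeled FcγRIIB-/- was left out (adjusted p between 0.0558 and 0.0955). Its ligand Cxcl16 did not pass, with a log2 fold change of 0.08. Of the 12 T and NK cell markers listed, 9 were tested and 3 were lower. The 12 summed to 12.1 to 60.6 CPM in WT and 6.79 to 12.4 CPM in the mice labeled FcγRIIB-/-. Of the 11 B lineage markers 10 were lower, with sums of 47.5 to 112.6 CPM and 14.1 to 33.2 CPM. The part of both marker lists in these receptor results was not tested.

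**Figure D2:**
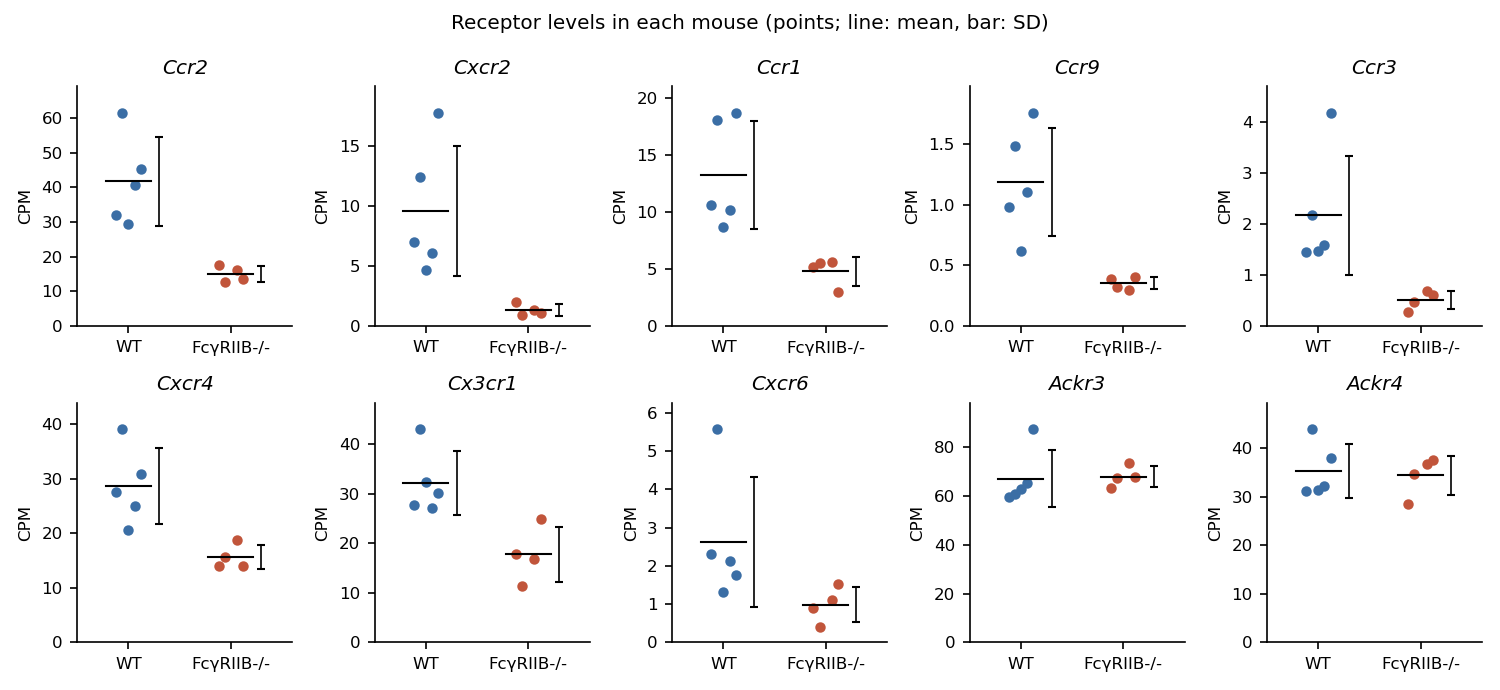
The y axis of each panel is the level of 1 receptor in CPM, starting at 0, with a point per mouse (5 WT, 4 labeled FcγRIIB-/-), a line at the mean and a bar for the SD. Of the 8 receptors called lower, 7 show no overlap and Cxcr6 overlaps, as do the atypical receptors Ackr3 and Ackr4.

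Cxcr5, Ccr7 and Cxcr3 did not pass, and WT mouse 2 was the highest of all 9 mice in each. Cxcr5, the B cell follicle receptor, had 0.43, 5.46, 0.35, 0.51 and 0.66 CPM in WT and 0.04, 0.05, 0.42 and 0.25 CPM in the mice labeled FcγRIIB-/- (log2 fold change -2.96, SE 1.08, adjusted p = 0.0555). It passed as lower without WT mouse 1 (adjusted p = 0.0498) or WT mouse 3 (adjusted p = 0.0436). Ccr7, which brings T cells and dendritic cells to lymph nodes, had 2.61, 7.46, 1.16, 1.65 and 1.33 CPM in WT and 1.16, 0.83, 1.23 and 1.32 CPM in the other group (log2 fold change -1.32, SE 0.55, adjusted p = 0.0859, and 0.0388 by DESeq2). Cxcr3, the receptor of the interferon-induced Cxcl9 and Cxcl10, had 0.98, 3.21, 0.73, 0.81 and 0.90 CPM in WT and 0.81, 0.37, 0.51 and 0.51 CPM in the mice labeled FcγRIIB-/- (log2 fold change -1.24, SE 0.50, adjusted p = 0.0777). Xcr1, a receptor of cross-presenting dendritic cells, had a log2 fold change of -0.86 (adjusted p = 0.0798), and it passed without WT mouse 3 (adjusted p = 0.0318).

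The ligand of Cxcr5 changed direction with WT mouse 2. Cxcl13, which gathers B cells into follicles, had 2.93, 47.1, 1.23, 0.44 and 0.90 CPM in WT and 4.20, 2.54, 11.4 and 5.27 CPM in the mice labeled FcγRIIB-/-. With all mice the log2 fold change was -0.84 (SE 1.18, adjusted p = 0.612). Without WT mouse 2 it was 2.09 and passed as higher (adjusted p = 0.0206), and without WT mice 2 and 5 it was 1.94 (adjusted p = 0.0462). In WT mouse 2, Cr2, a complement receptor of B cells and follicular dendritic cells, was 8.03 CPM, against 0.29 to 0.66 CPM in the other WT mice and 0.09 to 0.42 CPM in the mice labeled FcγRIIB-/-. Ccr6, below the filter, had 70 counts in WT mouse 2 and at most 8 in any other mouse. Ccl5, the T cell and NK cell product, had 2.46, 7.02, 1.54, 1.80 and 1.80 CPM in WT and 0.91, 0.88, 3.18 and 2.79 CPM in the other group (log2 fold change -0.60, SE 0.55, adjusted p = 0.427). Ccl19, a ligand of Ccr7, had at most 1 count in any mouse, and Ccl21a and Ccl21b had 0.

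Higher ligands were 2. Ccl27a, made by keratinocytes, had 3.66, 3.57, 4.09, 4.08 and 3.01 CPM in WT and 5.82, 6.70, 4.32 and 5.42 CPM in the mice labeled FcγRIIB-/-. The groups did not overlap, at a log2 fold change of 0.60 (SE 0.16, adjusted p = 0.0169), and the call was lost without mouse 2 labeled FcγRIIB-/- (adjusted p = 0.0521) or without WT mice 2 and 5 (adjusted p = 0.0605). Ccl25, the ligand of Ccr9, had 1.78, 1.97, 1.62, 1.80 and 1.05 CPM in WT and 2.73, 2.36, 2.29 and 2.99 CPM in the other group. These did not overlap either (log2 fold change 0.66, SE 0.20, adjusted p = 0.0315), and the call was lost without mouse 1 or mouse 4 labeled FcγRIIB-/- (adjusted p = 0.0743 and 0.078) or without WT mice 2 and 5 (adjusted p = 0.0525). Ccl25 and Ccr9 thus passed in different directions. Ccr9 reached the filter through the WT mice alone, however, so its lower value is partly fixed by the filter. Of the 14 keratinized epithelium markers listed, 13 were tested, 6 were lower and 1 was higher. The 14 summed to 4720 to 12102 CPM in WT and 5556 to 6935 CPM in the mice labeled FcγRIIB-/-. Their part in the Ccl27a result was not tested. Ccl27a has a near-identical copy, Ccl27b, with 41 counts in WT mouse 1 and 0 or 1 in the others, so the split of reads between the copies is uncertain.

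**Figure D3:**
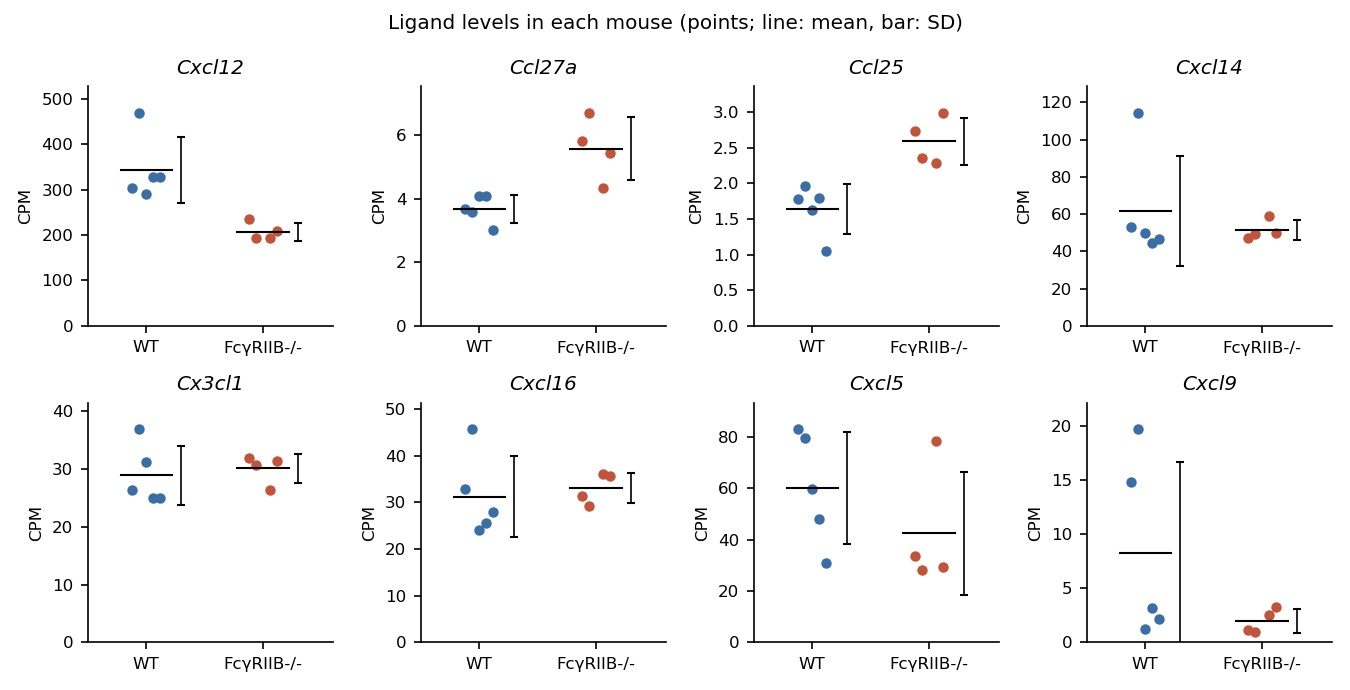
The y axis of each panel is the level of 1 ligand in CPM, starting at 0, with a point per mouse (5 WT, 4 labeled FcγRIIB-/-), a line at the mean and a bar for the SD. Cxcl12 is lower and Ccl27a and Ccl25 are higher without overlap, and WT mouse 2 is the top point for Cxcl12, Cxcl14 and Cxcl9, where the WT bar would run below 0 for Cxcl9.

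The neutrophil chemokines under the rule, Cxcl1, Cxcl2, Cxcl3 and Cxcl5, did not pass. Ppbp, a CXC chemokine of the same gene cluster outside the rule, was lower (log2 fold change -1.46, adjusted p = 0.000352) and is described below. Cxcl1 had 18.8, 15.5, 6.75, 8.41 and 5.43 CPM in WT and 7.50, 16.3, 21.9 and 7.80 CPM in the mice labeled FcγRIIB-/- (log2 fold change 0.28, SE 0.42, adjusted p = 0.635). Cxcl2 had 5.18, 6.74, 1.20, 1.36 and 0.62 CPM in WT and 0.95, 2.68, 3.69 and 0.51 CPM in the other group (log2 fold change -0.62, SE 0.73, adjusted p = 0.542). The same mice were high in both genes, WT mice 1 and 2 and mice 2 and 3 labeled FcγRIIB-/-. Over the 9 mice, which share library and depth between genes, Pearson's r of log2 CPM was 0.88 for Cxcl1 with Cxcl2 and 0.96 after the group means were removed, and for Cxcl2 with Cxcl3 it was 0.89 and 0.88. These are descriptions of neighboring genes whose promoters, shown above, hold the GGAATTTCC sequence. Pairs with a gene in which that sequence was not found had similar values. For Cxcl3 with Cxcl5 r was 0.91 and 0.92, for Ccl2 with Ccl7 0.88 and 0.88, and for Ccl9 with Ccl6 0.85 and 0.91. The relation of the sequence to the shared pattern was not tested.

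Cxcl5, the most abundant of these ligands in CPM and in CPM per kilobase, had 83.1, 79.5, 59.9, 48.1 and 30.8 CPM in WT. In the mice labeled FcγRIIB-/- it had 33.7, 28.3, 78.3 and 29.5 CPM, and 3 of the 4 lay near or below the lowest WT mouse. The log2 fold change was -0.50 (SE 0.35, adjusted p = 0.294), and without mouse 3 labeled FcγRIIB-/- it was -0.98 and passed as lower (adjusted p = 0.0339). Cxcl1, 1 ligand of Cxcr2, can be set against the receptor within a mouse. Cxcl1 over Cxcr2 was 2.71, 1.25, 1.45, 1.39 and 0.31 in WT and 3.69, 18.6, 16.2 and 7.33 in the mice labeled FcγRIIB-/-, without overlap. This ratio, too, was chosen after the values were seen. Cxcl1 did not pass while Cxcr2 was lower, so the ratio largely restates the Cxcr2 result. Its denominator rests on 19 to 58 counts a mouse in the mice labeled FcγRIIB-/-.

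**Figure D4:**
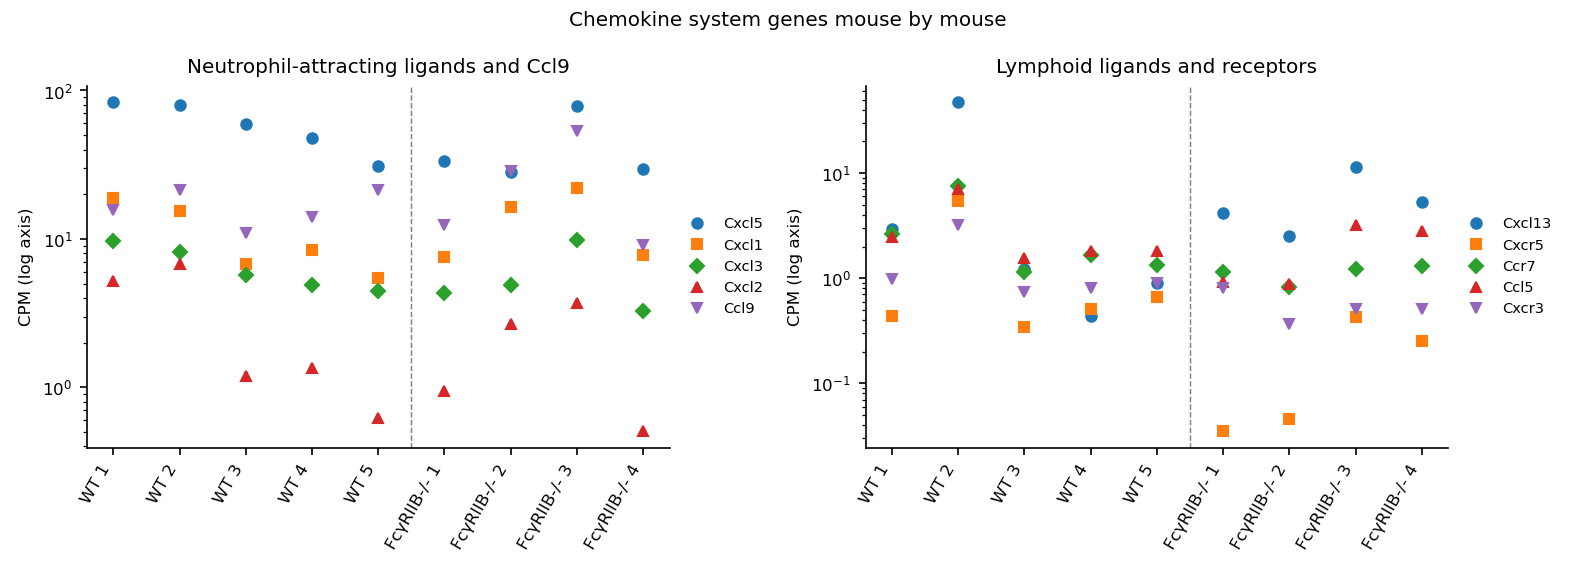
The y axis is the level in CPM on a log axis and the x axis lists the 9 mice, WT to the left of the dashed line and those labeled FcγRIIB-/- to the right, with a symbol per gene. Cxcl1 and Cxcl2 are high in WT mice 1 and 2 and in mice 2 and 3 labeled FcγRIIB-/-, and WT mouse 2 is highest in all 5 lymphoid genes.

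Among the CC ligands of monocytes, Ccl2, the main ligand of Ccr2, had 2.28, 5.22, 1.89, 1.98 and 2.30 CPM in WT and 1.58, 4.62, 5.59 and 1.77 CPM in the mice labeled FcγRIIB-/- (log2 fold change 0.31, SE 0.43, adjusted p = 0.612). Ccl9, a Ccr1 ligand that osteoclasts make, had 15.8, 21.2, 10.9, 14.1 and 21.3 CPM in WT and 12.3, 28.5, 53.6 and 9.12 CPM in the other group (log2 fold change 0.64, SE 0.44, adjusted p = 0.289). Mice 2 and 3 labeled FcγRIIB-/- were the highest of their group in both. They were also the 2 mice with the most Il6 transcripts, 3.56 and 2.75 CPM, against 0.04 to 1.12 CPM in the other 7 mice, and the relation to Il6 was not tested. Without mouse 3 labeled FcγRIIB-/- the estimate of Ccl9 turned to -0.00017 and that of Ccl2 to -0.04.

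Cx3cl1, the membrane-bound ligand of Cx3cr1, had 26.3, 36.8, 31.1, 25.0 and 25.0 CPM in WT and 31.9, 30.7, 26.3 and 31.3 CPM in the mice labeled FcγRIIB-/-. Its log2 fold change was 0.06 with a 95% interval of -0.21 to 0.33, while that of its receptor was -1.31 to -0.40. Cxcl14, made by epithelium and fibroblasts, had 53.1, 114.4, 49.7, 44.6 and 46.5 CPM in WT and 47.1, 49.4, 59.1 and 49.9 CPM in the other group (log2 fold change -0.26, SE 0.26, adjusted p = 0.463). All mice but WT mouse 2 lay between 44.6 and 59.1 CPM. Cxcl10, an interferon-induced ligand of Cxcr3, had 6.41, 5.18, 1.31, 1.51 and 4.22 CPM in WT and 1.44, 5.78, 4.15 and 1.72 CPM in the mice labeled FcγRIIB-/- (log2 fold change -0.19, SE 0.54, adjusted p = 0.81). Cxcl9, of the same group, had 14.8, 19.7, 1.27, 3.16 and 2.19 CPM in WT and 1.16, 0.92, 2.54 and 3.24 CPM in the other group. WT mice 1 and 2 carried the difference (log2 fold change -2.08, SE 0.81, adjusted p = 0.0706), and it passed as lower without WT mouse 3 (adjusted p = 0.0334) or WT mouse 5 (adjusted p = 0.0469).

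**Figure D5:**
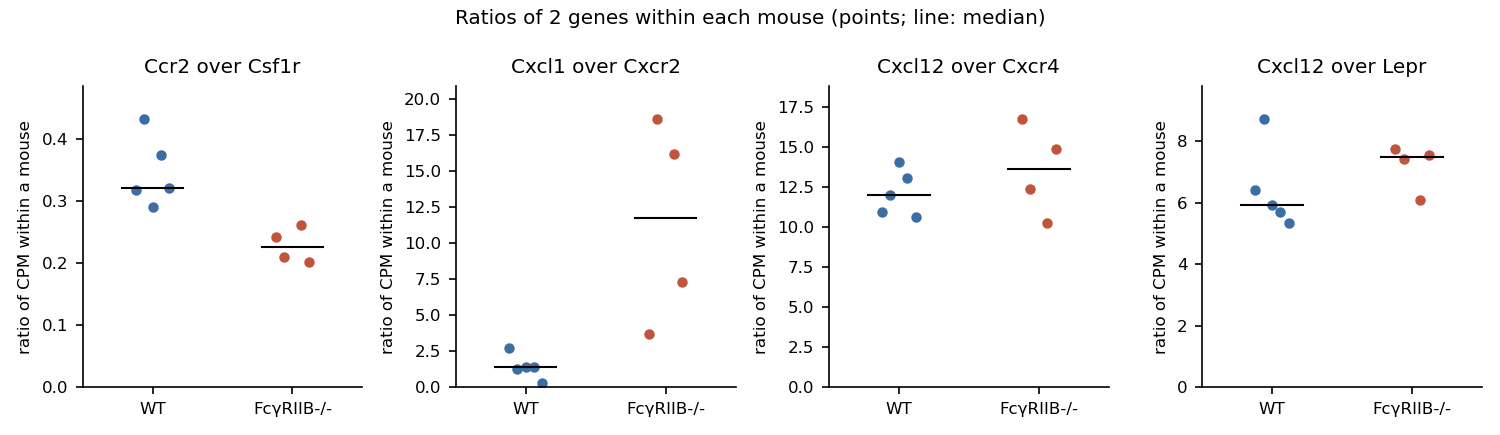
The y axis of each panel is the ratio of the CPM of 2 genes within a mouse, starting at 0, with a point per mouse (5 WT, 4 labeled FcγRIIB-/-) and a line at the median. Ccr2 over Csf1r and Cxcl1 over Cxcr2 do not overlap between the groups, whereas Cxcl12 over Cxcr4 and Cxcl12 over Lepr do.

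Other ligands that did not pass had log2 fold changes of -0.68 for Ccl28, -0.60 for Ccl8, -0.54 for Ccl22, -0.25 for Ccl12 and -0.24 for Cxcl3. Ccl3, Ccl7 and Ccl6 were at -0.04, -0.03 and -0.02, and Ccl4 was at 0.28. The remaining atypical receptors were Ackr1, the erythroid and venular binder of many chemokines, at 0.03, Ackr2, a scavenger of CC chemokines, at 0.18, and Ackr4, a scavenger of Ccl19, Ccl21 and Ccl25, at -0.04. In all 3 the values of the groups overlapped.

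The 17 genes below the filter were Ccl1, Ccl17, Ccl19, Ccl20, Ccl21a, Ccl21b, Ccl26, Ccl27b, Cxcl11, Cxcl15, Cxcl17, Xcl1, Ccr4, Ccr6, Ccr8, Ccr10 and Cxcr1. Of these Ccl21a, Ccl21b and Ccl26 had 0 counts in all 9 mice. Xcl1, the ligand of Xcr1, had 13, 20, 5, 8 and 10 counts in WT and 4, 1, 2 and 4 counts in the mice labeled FcγRIIB-/-, and it passed as lower in the fit without a filter (log2 fold change -1.83, adjusted p = 0.029) and in DESeq2 (-1.85, adjusted p = 0.0296).

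Per kilobase of exon (GENCODE exons of all transcripts merged, found for all 60 genes), Cxcl12 had the highest mean level of the ligands in WT, at 42.0 CPM per kb, followed by Cxcl14 at 33.8 and Cxcl5 at 32.3. In the mice labeled FcγRIIB-/- the same 3 stood at 25.4, 28.1 and 22.8 CPM per kb, with Cxcl14 above Cxcl12. Among the receptors Ackr3 was highest in WT at 20.1 CPM per kb, then Cxcr4 at 15.8, Cx3cr1 at 7.12 and Ackr4 at 6.56. In the other group Ackr3 was at 20.3, Cxcr4 at 8.63, Ackr4 at 6.38 and Cx3cr1 at 3.94 CPM per kb. Ccr2 fell from 6.17 to 2.22 CPM per kb and Cxcr2 from 3.14 to 0.44 CPM per kb.

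Many members lie in gene clusters, taken here as genes whose starts are under 1 Mb apart. The receptor cluster on chromosome 9 (GRCm38.p6, 123767211 to 124109140, 341.9 kb) holds Ccr9, Cxcr6, Xcr1, Ccr1, Ccr3 and Ccr2. Of these 6 genes, all of them tested, 5 were lower and 0 were higher, against 19.3% lower and 14.0% higher over all tested genes. Among the 5, Ccr9 and Ccr3 reached the filter through the WT mice alone, so their lower values are partly fixed by it. The call of Cxcr6 was lost when certain single mice were left out. On chromosome 11, the 5 tested of Ccl2, Ccl7, Ccl11, Ccl12, Ccl8 and Ccl1 and the 5 tested of Ccl5, Ccl9, Ccl6, Ccl3 and Ccl4 gave 0 calls. On chromosome 5, the 4 tested genes among Cxcl5, Cxcl3, Cxcl15, Cxcl1 and Cxcl2 gave 0 calls, although Ppbp and Pf4, the platelet CXC chemokines whose symbols fall outside the rule, lie between Cxcl5 and Cxcl3. Ppbp was 177.0 ± 26.8 CPM (SD, n = 5) in WT and 64.4 ± 15.7 CPM (SD, n = 4) in the mice labeled FcγRIIB-/- (log2 fold change -1.46, SE 0.17, adjusted p = 0.000352), and Pf4 was 42.5 ± 3.36 and 20.6 ± 5.69 CPM (log2 fold change -1.05, SE 0.17, adjusted p = 0.00171). All 8 megakaryocyte and platelet markers, which include these 2 genes, were lower, with sums of 258.4 to 346.2 CPM and 73.4 to 127.7 CPM. Their part in the Ppbp and Pf4 results was not tested.

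Of 7 chemokine-related genes outside the rule, 4 were lower: Ppbp, Pf4, the chemerin receptor Cmklr1 (log2 fold change -0.79, SE 0.15, adjusted p = 0.00383) and chemerin itself, Rarres2 (-0.30, SE 0.06, adjusted p = 0.00401). Ccrl2, Cklf and Gpr182 did not pass. Of 51 genes that act below chemokine receptors, 50 were tested, 22 were lower and 1 was higher, with a median log2 fold change of -0.26. That is 44% lower and 2% higher, against 19.3% and 14.0% over all tested genes. The lowest adjusted p values belonged to Rgs18, a regulator of G protein signaling in platelets and myeloid cells (log2 fold change -2.10, SE 0.28, adjusted p = 0.000741), Rac2, the hematopoietic Rac GTPase (-1.90, SE 0.26, adjusted p = 0.000833), Pik3cg, the G protein-driven PI3 kinase of leukocytes (-1.60, SE 0.23, adjusted p = 0.00103), and Plcb2, the phospholipase C of blood cells (-1.61, SE 0.24, adjusted p = 0.00112). Rgs2, the higher gene, had 105.6 ± 15.8 CPM (SD, n = 5) in WT and 157.9 ± 45.9 CPM (SD, n = 4) in the mice labeled FcγRIIB-/- (log2 fold change 0.58, SE 0.18, adjusted p = 0.0309). Without WT mice 2 and 5, 12 of these genes were lower and 0 were higher, while 2066 of all 16359 genes then tested were lower and 1479 were higher.

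The leukocyte marker Ptprc (CD45) was 44.0 to 117.3 CPM in WT and 24.5 to 40.0 CPM in the mice labeled FcγRIIB-/-, and 7 of 8 pan-leukocyte markers were lower, with sums of 363.2 to 783.3 CPM and 186.3 to 281.5 CPM. Relative to Ptprc within a mouse, 1 of the 9 genes called lower did not overlap between the groups. Cxcr2 over Ptprc was 0.11 to 0.21 in WT and 0.03 to 0.07 in the other group. For Cxcr4 the ratios were 0.33 to 0.51 and 0.41 to 0.63, for Ccr2 0.52 to 0.80 and 0.40 to 0.64, and for Cxcl12 3.93 to 6.60 and 4.82 to 8.66. Ccr1, Ccr3, Ccr9, Cx3cr1 and Cxcr6 also overlapped. The part of leukocyte number in the receptor results was not tested. Of the markers of other cells, 3 of 11 endothelial (median log2 fold change 0.02), 4 of 10 osteoblast, 8 of 9 osteoclast, 9 of 9 erythroid and 2 of 7 plasma cell genes were lower, and 6 of 10 skeletal muscle and 4 of 8 dental and enamel genes were higher.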

How the data were processed

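Per the authors' methods, reads were cleaned with Trim Galore, aligned to the mm10 genome with HISAT 02.1.0 and assigned to genes with featureCounts, and the deposited values are raw counts. The gene annotation, the strand setting and the handling of reads matching several genes are not given in the sources used here, so near-identical copies are uncertain. Samples were grouped by their labels, and 1 further column of counts that matches no sample was not used. Rows without a gene symbol, 3.79% of rows and 0.0971% of counts, were kept under their identifiers.

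Counts were analyzed with R 4.3.3 and edgeR 4.0.16: filterByExpr (minimum count 10), TMM, a quasi-likelihood fit with genotype as its sole term, and p-values adjusted by Benjamini-Hochberg over 16329 genes. SE was obtained by dividing the size of the log2 fold change by the root of F. log2 CPM used a prior count of 2. No pair of libraries was a duplicate (0 found). Whether separate animals were also prepared separately is not stated, so p-values measure the spread between these libraries, and counting error adds to it at low counts.

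The members and gene lists were chosen with earlier results of these data known. Every called member is named. Values per mouse are given for called members with a mean of at least 1 CPM in either group and for 22 genes of the main ligand and receptor pairs, and Cxcl9 was added after its values were seen. The result of 1 member is not reported here, though it stays in the counts of members. Other members are given by fold change, and other lists by at most 4 called genes, except the marrow stromal markers, which are all named. Promoters and positions came from RefSeq (GRCm38.p6) and exon lengths from GENCODE M21. Alternatives covered RLE factors, library totals, other filters, DESeq2 1.42.0, a fold limit, a replicate block and leaving out each mouse.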

Additional observations from a re-analysis of the deposited data

Results flagged for a closer look

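In 8 of 86 groups of mice examined (43 genes, 2 genotypes), 1 mouse lay far from the others by Dixon's gap test on log2 CPM, which chance gives in about 1 of 20 groups. WT mouse 2 was the mouse in 5 of the 8. It had 470 CPM of Cxcl12 (others 290.4 to 327.9), 114 CPM of Cxcl14 (others 44.6 to 53.1), 5.22 CPM of Ccl2 (others 1.89 to 2.30), 5.46 CPM of Cxcr5 (others 0.35 to 0.66) and 3.21 CPM of Cxcr3 (others 0.73 to 0.98). WT mouse 5 had 87.4 CPM of Ackr3 (others 59.5 to 65.2). Among the mice labeled FcγRIIB-/-, mouse 3 had 78.3 CPM of Cxcl5 (others 28.3 to 33.7), and mouse 4 had 2.94 CPM of Ccr1, below the others (5.19 to 5.63).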

How the results depend on the processing

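Cxcl12 and the receptors Ccr1, Ccr2, Ccr3, Ccr9, Cxcr2, Cxcr4 and Cx3cr1 kept their direction and their call under all 16 alternatives in which their estimates were refitted. The replicate numbers did not pair the mice (correlations of same-numbered mice between -0.11 and 0.10), and the cause of the changes below was not tested. With the replicate block, 7 receptors were lower, 0 ligands were higher and 14 signaling genes were lower, and Ccl7 (0.14), Ccl6 (0.033), Ccl3 (0.15), Cxcl13 (0.81) and Ackr1 (-0.027) turned sign. With library totals only, 1309 genes, 1 ligand and 0 signaling genes were higher, and Ackr1 (-0.051), Ackr3 (-0.055) and Cx3cl1 (-0.019) turned sign, while the median of all genes moved to -0.07. With RLE factors, with the filter of 10 counts in every mouse of a group, and with DESeq2, 2 signaling genes were higher. Without a filter and with DESeq2, 2 ligands were lower. With a log2 fold change of at least 1, 181 genes were higher and 1069 lower, 0 ligands were higher or lower, 0 signaling genes were higher and 8 lower, and 2 related genes were lower. Without WT mice 2 and 5, 1479 genes were higher and 2066 lower, 1 ligand was higher, 1 receptor was higher, 0 signaling genes were higher and 12 lower, and log2 fold changes that turned sign were Ccl7 0.84, Ccl12 0.0029, Ccl5 0.0073, Ccl6 0.45, Ccl3 0.86, Cxcl14 0.087, Cxcl10 0.10, Cxcl13 1.94 and Ackr4 0.14. Leaving out each mouse in turn gave 1 to 3 ligands higher, 1 to 2 lower, 0 to 1 receptors higher, 7 to 10 lower, and 0 to 2 signaling genes higher. Over the same fits, estimates that turned sign ranged from -0.050 to 0.16 for Ackr1, -0.022 to 0.15 for Ackr3, -0.083 to 0.067 for Ackr4, -0.36 to 0.10 for Ccl12, -0.043 to 0.70 for Ccl2, -0.56 to 0.019 for Ccl24, -0.24 to 0.68 for Ccl3, -0.95 to 0.031 for Ccl5, -0.61 to 0.30 for Ccl6, -0.32 to 0.49 for Ccl7, -0.00017 to 0.92 for Ccl9, -0.061 to 0.59 for Cxcl1, -0.61 to 0.11 for Cxcl10, -1.39 to 2.09 for Cxcl13 and -0.34 to 0.10 for Cxcl14. Genes under about 1 CPM rest on fewer than 30 counts a mouse, and counting error limits what can be read from the 17 genes below the filter.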
